A study of Mus musculus with 34 samples.

Results

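A set of 10 genes of the lipid droplet and triglyceride pathway were followed in cumulus cells (CCs), the somatic cells that surround the oocyte. They were chosen by name as the entries Plin2, Plin3, Gpam, Dgat1, Dgat2, Pnpla2, Lipe, Mgll, Cd36 and Fabp5, and all 10 were found among the 25965 entries of the count table. RNA-seq libraries came from 34 C57BL/6J female mice, 1 library per mouse, each made from about 50 CCs of a single complex collected after superovulation. Mice entered the protocols at 8 weeks of age. In the pharmacological protocol they were injected for 16 days with saline (16 C, n = 3) or with leptin at 100 μg per day (16 L, n = 5). In the diet-induced obesity protocol they received chow diet (CD, 11% of energy from fat) or high-fat diet (HFD, 58%) for 4 weeks (CD n = 5, HFD n = 5) or 16 weeks (CD n = 6, HFD n = 7). A further 3 mice on HFD for 16 weeks were labelled low weight gainers, a group defined by the animals' own response to the diet.

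Cells store surplus fatty acids as triglyceride in lipid droplets. CD36 takes up fatty acids and FABP5 binds them in the cytosol. GPAM starts glycerolipid synthesis by acylating glycerol-3-phosphate, and DGAT1 and DGAT2 complete triglyceride. PLIN2 and PLIN3 coat the droplets. PNPLA2 (adipose triglyceride lipase), LIPE (hormone-sensitive lipase) and MGLL (monoglyceride lipase) then release the fatty acids one after another. In CCs these stores are known as a source of energy around ovulation.

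The total count per library ranged from 1104611 to 13207018. Levels are given as CPM, read counts relative to the library total, scaled by the TMM method over all 34 libraries, and fold changes as log2 values from edgeR's quasi-likelihood test, with the standard error (SE) and the p adjusted over all genes tested. A gene was called past an adjusted p of 0.05. Granulosa and cumulus markers summed to between 496.4 and 1546 CPM in every library. The 4 adipocyte markers summed to 78.6 CPM in 16 L replicate 18 and to at most 1.73 CPM in every other library. Oocyte markers summed to 290.4 CPM in 4-week HFD replicate 5 and to at most 13.8 CPM elsewhere, and endothelial markers to at most 62.8 CPM. Macrophage markers were present in every library, at 63.1 to 1535 CPM in sum. They were above the granulosa and cumulus sum in 16 L replicates 20 and 23 and in 16 C replicate 2 (788.8 against 700.7 CPM in the last). Oviduct epithelium markers summed to 32961, 1696 and 1111 CPM in 16 L replicates 18, 21 and 20 and to at most 556.6 CPM in every other library. Libraries stood apart in composition. The 50 most abundant genes took 8.69 to 18.01% of counts in 17 libraries (all of 16 L, all 4-week libraries, and 16-week CD replicates 1 and 2) and 22.01 to 29.6% in the other 17. In bulk RNA, fewer cells of a type and less RNA per cell cannot be told apart.

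Per kilobase of transcript, the coat genes were the most abundant members by the median over all libraries, but the order differed between groups. By group means both led in 16 C, 16 L and 16-week HFD. In 4-week HFD Pnpla2 had 45.2 CPM per kb, against 37.1 for Plin2 and 23.6 for Plin3. In 4-week CD Dgat1 was first at 38.1, against 32.9 and 29.5. Dgat1 was also above Plin3 in 16-week CD (31.7 and 29.4) and in the low weight gainers (38.0 and 35.1). The median over 34 libraries was 45.7 CPM per kb for Plin2, 29.9 for Plin3 and 28.6 for Dgat1. Cd36 had 17.4, Fabp5 16.7, Gpam 12.3, Pnpla2 11.2 and Lipe 2.72 CPM per kb. Dgat2 and Mgll were the scarcest, at 0.909 and 0.605 CPM per kb. These levels rest on the longest principal transcript of each gene in GENCODE M21, a choice made after a first length definition had been seen. The gene models behind the counts are not given in the sources used here.

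Members also differed in how far they ranged between groups. The highest group mean was 13.9 times the lowest for Pnpla2 and 13.8 times for Lipe, in both cases 4-week HFD over 16 C. That ratio was 7.31 for Dgat2, 5.28 for Gpam and 4.40 for Mgll. For Fabp5, Dgat1, Plin3, Cd36 and Plin2 it lay between 2.10 and 2.70. The groups 4-week HFD and 16 C come from different protocols. The 50 most abundant genes took 17.0 to 18.01% of counts in 4-week HFD and 28.4 to 29.6% in 16 C, whose part in these ratios was not tested.

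**Figure D1:**
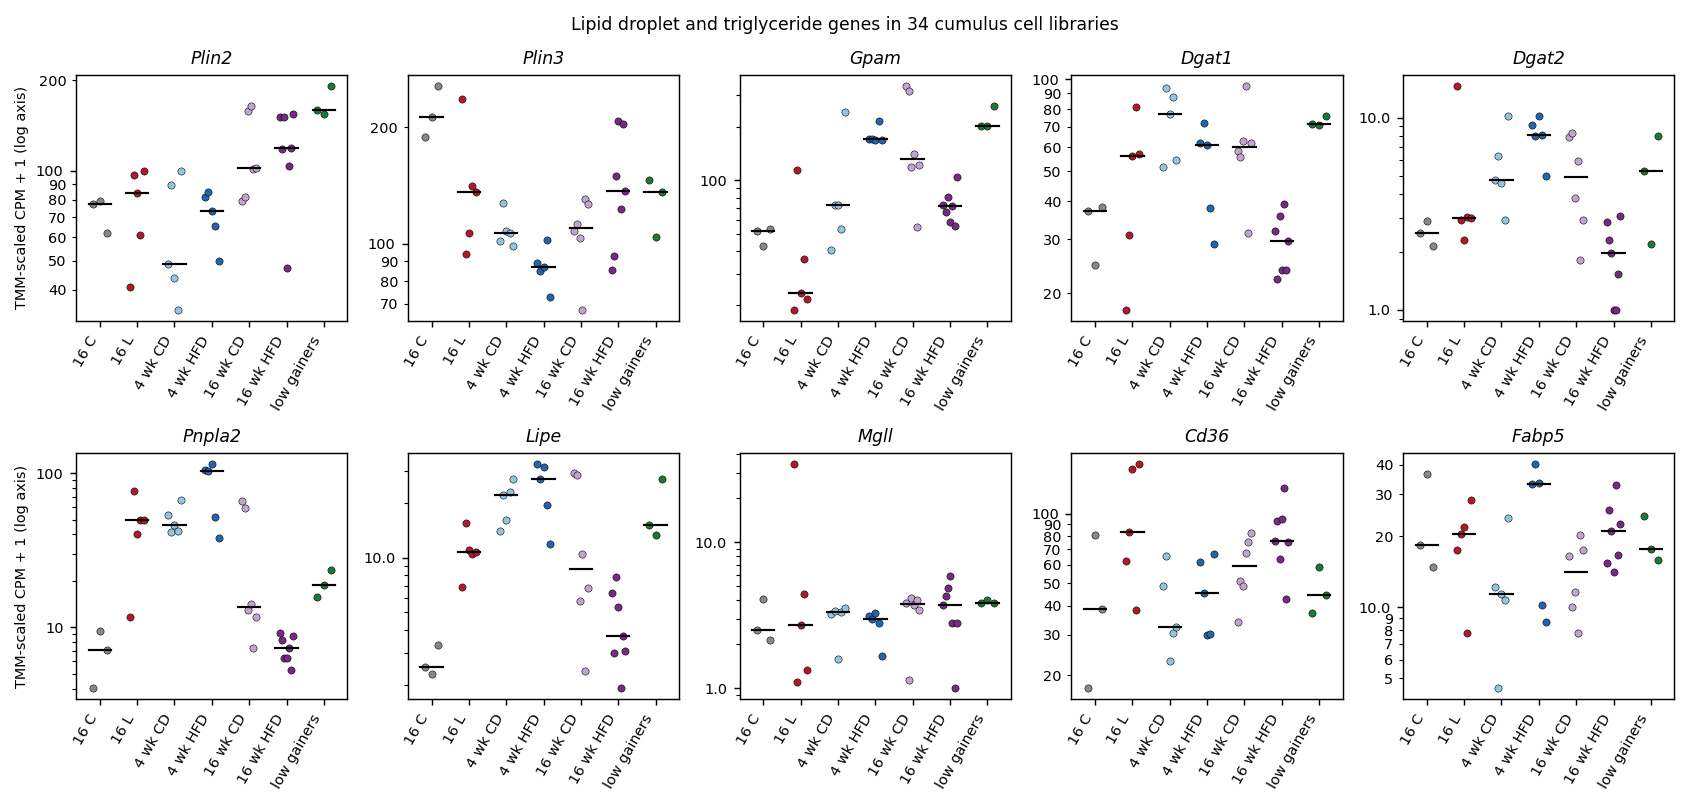
TMM-scaled CPM plus 1 (log axis) of each member in every library by group, with points for mice and bars for group medians. Pnpla2 and Lipe show the widest range between groups, and 16-week CD replicates 1 and 2 lie at 58.0 to 65.4 CPM of Pnpla2 against 6.33 to 13.1 CPM in the other 4 libraries of that group.

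Promoter windows were matched by symbol for 7 of the 10 members in RefSeq (GRCm38.p6). Only windows whose start lay within 100 bases of the gene start in the count table were used. Lipe and Cd36 had no such start. Gpam and Mgll each had another RefSeq start, 27787 and 292 bases from that of the count table. The windows at those other starts are not described here, so that the matches below do not cover them. The 250 bases before the start used are shown for 4 members. Pnpla2 and Gpam are shown because they were the 2 members called in the interaction of diet and time. Plin2 and Plin3 are shown as members that edgeR called in no comparison with all libraries of its groups. Mgll was also called in none, and its window is described below without being printed. Sequences run 5′ to 3′ on the gene's strand, and capitals mark every exact match, on either strand, to the motifs searched.
Pnpla2, chr7:141454938-141455187, plus strand: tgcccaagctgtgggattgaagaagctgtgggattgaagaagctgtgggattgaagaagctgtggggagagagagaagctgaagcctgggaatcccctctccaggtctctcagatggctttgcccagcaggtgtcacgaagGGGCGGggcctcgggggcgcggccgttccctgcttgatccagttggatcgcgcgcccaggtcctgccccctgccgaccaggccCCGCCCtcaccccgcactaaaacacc
Gpam, chr19:55099478-55099727, minus strand: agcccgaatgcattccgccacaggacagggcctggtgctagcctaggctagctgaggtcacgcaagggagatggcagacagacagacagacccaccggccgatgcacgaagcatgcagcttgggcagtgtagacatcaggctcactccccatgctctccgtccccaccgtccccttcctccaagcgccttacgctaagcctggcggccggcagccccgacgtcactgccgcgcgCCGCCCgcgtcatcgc
Plin2, chr4:86670060-86670309, minus strand: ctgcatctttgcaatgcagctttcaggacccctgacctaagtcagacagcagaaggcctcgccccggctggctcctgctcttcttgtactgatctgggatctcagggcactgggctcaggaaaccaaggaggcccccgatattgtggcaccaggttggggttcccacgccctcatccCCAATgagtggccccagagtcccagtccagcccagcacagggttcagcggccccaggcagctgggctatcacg
Plin3, chr17:56290512-56290761, minus strand: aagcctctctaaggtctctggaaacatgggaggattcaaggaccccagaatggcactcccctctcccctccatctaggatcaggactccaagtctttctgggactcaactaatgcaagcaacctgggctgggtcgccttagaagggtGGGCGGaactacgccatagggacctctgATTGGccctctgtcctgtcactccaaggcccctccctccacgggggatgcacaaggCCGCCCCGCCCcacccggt

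A set of 8 motifs was searched in these windows. The GC box (GGGCGG) was matched at 2 places in Pnpla2, 1 in Gpam, 3 in Plin3 and 0 in Plin2, and it occurs in 32.7% of the 32851 promoter windows of the same length. The CCAAT box (CCAAT) was matched once each in Plin2 and Plin3, against 33.8% of windows. None of the 4 windows held the E-box (CACGTG, 6.02% of windows), the NR5A1 site (CAAGGTCA, 1.33%), the FOXO site (GTAAACA, 3.17%), the cAMP response element (TGACGTCA, 1.55%), a TATA box (TATAAA, 12.4%) or a PPAR response element (0.0335%), searched as a pair of AGGTCA sites in the same direction with a single base between them. The GC box matches of Plin3 next to its start overlap each other. The window of Mgll, not printed here, held 1 E-box and 1 FOXO site and none of the other 6 motifs. A match is a description of letters in this window only.

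The leptin comparison asked how CCs differ after repeated leptin injection. Both tested lipases were higher in 16 L than in 16 C, while the coat, synthesis and uptake genes were not called. Pnpla2 stood at 3.02, 8.40 and 6.16 CPM in 16 C and at 10.7, 75.4, 39.4, 48.3 and 49.0 CPM in 16 L replicates 18, 19, 20, 21 and 23. The groups did not overlap, and replicate 18 was the lowest of 16 L. The log2 fold change was 2.85 (SE 0.634, adjusted p = 0.0315). Lipe stood at 1.51, 1.30 and 2.31 CPM in 16 C and at 5.92, 14.5, 9.95, 9.53 and 9.73 CPM in 16 L, again without overlap. The values of 16 C replicates 1, 2 and 3 rest on few reads, 2, 11 and 6 for Lipe and 4, 71 and 16 for Pnpla2. In replicate 1 a count of 3 reads equals 2.26 CPM, above its Lipe value. The log2 fold change of Lipe was 2.54 (SE 0.559, adjusted p = 0.0309). Without the filter on low counts it was 2.58 and not called (adjusted p = 0.0673). These were 2 of 8 members tested, with 8.56% of all 11723 genes called (4.06% higher and 4.5% lower), and the median log2 fold change was 0.31 over the members and 0.27 over all genes.

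Both calls were lost when any of 16 C replicates 1, 2 or 3 or 16 L replicates 20, 21 or 23 was left out, with adjusted p from 0.0672 to 0.152, although the log2 fold changes stayed between 2.35 and 3.24. All 16 C libraries had 28.4 to 29.6% of counts on the 50 most abundant genes and all 16 L libraries 8.69 to 14.6%, so that composition and treatment cannot be told apart here. Markers of other cells also differed before adjustment. All 6 oviduct epithelium markers tested had an unadjusted p under 0.05 (median log2 fold change 6.84), as did 4 of 10 macrophage markers (median 1.55), and 32.4% of all genes, while no marker was called. Replicate 19 had the lowest sums of both lists in 16 L, at 9.22 and 89.0 CPM, and the highest Pnpla2 and Lipe, and replicate 18 the highest oviduct sum. Both calls held without either one, at 2.58 and 2.37 without replicate 19 and 2.95 and 2.60 without replicate 18. Replicate 19 also had 4.71% of counts on mitochondrial genes, against 0.435 to 0.654% in the other 4 libraries of 16 L, whose part was not tested.

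The remaining members of this comparison were not called. Cd36 had 16.6, 80.0 and 37.7 CPM in 16 C and 61.5, 82.6, 154.8, 37.4 and 162.7 CPM in 16 L, which overlap (log2 fold change 1.13, adjusted p = 0.236). Total counts, with 34.4% of all genes called, gave 2.05 for Cd36 (adjusted p = 0.0381) and limma-voom, which called 64.4% of all genes in this comparison, gave 1.76 (adjusted p = 0.00401). Macrophages also express Cd36, and their 10 markers summed to between 118.2 and 788.8 CPM in 16 C and between 89.0 and 1535 CPM in 16 L, a part in Cd36 that was not tested. Plin3 had a log2 fold change of -0.60 and an adjusted p of 0.307. Without 16 L replicate 18 it was -0.97 and called (adjusted p = 0.0133), limma-voom gave -0.85 (adjusted p = 0.00107), and total counts turned the sign (0.16). For Plin2, Gpam, Dgat1 and Fabp5 the values were 0.07, -0.22, 0.56 and -0.30, and limma-voom called Dgat1 higher (0.73, adjusted p = 0.0109). Gpam in 16 L replicate 19, the library with the high mitochondrial share, was 112.6 CPM against 17.8 to 35.4 CPM in the other 4 libraries, and without it the log2 fold change of Gpam was -0.99 and still not called. Limma-voom called Gpam lower with all libraries (-1.02, adjusted p = 0.00316), and total counts turned the sign (0.62).

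Dgat2 and Mgll had too few counts for the fit across genes. The 16 L libraries held 114 Dgat2 reads in all and 214 Mgll reads, and replicate 18 stood apart at 13.6 and 33.4 CPM. In that library the 8 oviduct epithelium markers summed to 32961 CPM, the highest of 16 L (lowest 9.22, median 1111), against 26.4 to 110.8 CPM in 16 C. The same library held 78.6 CPM of adipocyte markers (at most 1.73 CPM in the other 16 L libraries) and 1587 CPM of theca and stroma markers (at most 54.5 CPM). The part of these cells in the values was not tested. By a two-sided exact permutation test the differences of mean log2(CPM + 1) were 0.64 for Dgat2 (p = 0.214) and 0.36 for Mgll (p = 0.929). With these group sizes the test cannot give a p below 0.0357. Without 16 L replicate 18 the differences were 0.16 for Dgat2 and -0.45 for Mgll.

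Of 53 other pathway genes, 35 were tested in 16 L, of which 2 were higher and 2 lower, beside 4.06% and 4.5% of all genes. The fatty acid transporters Slc27a4 and Slc27a1 rose by 2.40 and 1.73 on the log2 scale (adjusted p = 0.0475 and 0.0395). Acsl4, which activates long-chain fatty acids to acyl-CoA, fell by 3.46 (adjusted p = 0.0119) from a mean of 9729 to 892.2 CPM. Soat1, which esterifies cholesterol for storage, fell by 2.46 (adjusted p = 0.0187) from 4307 to 780.2 CPM.

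The 4-week diet comparison addressed the early onset of obesity. None of the 10 members was called by edgeR, against 4.26% of 11727 genes (1.19% higher and 3.06% lower), and 2 members had an unadjusted p under 0.05, as did 24.3% of all genes. Limma-voom, which called 34.5% of all genes, called 6 members higher: Gpam (1.196, adjusted p = 0.00111), Pnpla2 (1.08, adjusted p = 0.000728), Fabp5 (1.496, adjusted p = 0.00516), Dgat2 (0.99), Lipe (0.70) and Plin2 (0.68). Gpam stood at 39.9, 71.9, 71.9, 52.7 and 239.2 CPM in 4-week CD replicates 1, 2, 7, 8 and 11 and at 170.5, 170.1, 167.4, 215.3 and 167.6 CPM in 4-week HFD. A single chow library, replicate 11, was above all the HFD libraries. The log2 fold change was 0.89 (SE 0.382, adjusted p = 0.167), and without that library it was 1.55 (adjusted p = 0.00233).

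Pnpla2 had 52.4, 40.7, 45.4, 41.1 and 65.8 CPM in 4-week CD. In 4-week HFD it had 103.9, 101.7 and 113.6 CPM in replicates 3, 4 and 5, and 50.7 and 37.0 CPM in replicates 13 and 14. The first 3 HFD libraries were above every CD library and the other 2 within or below them. Replicate 5, the highest, was also the library with 290.4 CPM of oocyte markers, whose part was not tested. The log2 fold change was 0.69 (SE 0.293, adjusted p = 0.163), and 1.12 (adjusted p = 0.0178) without replicates 13 and 14. Fabp5, Dgat1, Lipe, Plin2 and Mgll split the same libraries. Plin2 had 72.2 to 84.2 CPM in replicates 3, 4 and 5 and 49.1 to 64.4 CPM in replicates 13 and 14. Mgll had 1.97 to 2.30 and 0.659 to 1.80 CPM. Dgat1 had 59.9 to 70.8 CPM in replicates 3, 4 and 5 and 27.9 to 36.9 CPM in replicates 13 and 14, and Lipe 26.02 to 31.7 and 10.9 to 18.5 CPM. Without replicates 13 and 14 their log2 fold changes were -0.16 and 0.62, neither called. Fabp5 stood at 32.1 to 39.4 CPM in replicates 3, 4 and 5 and 7.69 to 9.27 CPM in replicates 13 and 14, and went from a log2 fold change of 0.99 (adjusted p = 0.206) to 1.55 (adjusted p = 0.0307) without them. Leaving out these 2 libraries was chosen after their values were seen, so that the values without them are a description.

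For the other 7 members the log2 fold change lay between -0.53 for Dgat1 and 0.53 for Dgat2. Of 35 other pathway genes tested, 1 was called, beside 4.26% of all genes: Agpat1, which makes phosphatidic acid, fell by 0.93 (adjusted p = 0.0328). Of 19 cell type markers tested, the granulosa marker Fshr alone was called, higher by 1.87 (adjusted p = 0.0281).

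The 16-week comparison addressed established obesity. No member passed the threshold, and 0.0276% of 10861 genes did (0.00921% higher and 0.0184% lower), while 5 of the 8 members tested had an unadjusted p under 0.05, as did 25.3% of all genes. Pnpla2 ranged from 6.33 to 65.4 CPM in 16-week CD with a median of 12.5, and from 4.30 to 8.12 CPM in 16-week HFD with a median of 6.37. The log2 fold change was -2.13 (SE 0.507, adjusted p = 0.0654). Gpam ranged from 53.6 to 337.9 CPM in CD (median 130.03) and from 54.3 to 102.8 CPM in HFD (median 71.0), with a log2 fold change of -1.34 (SE 0.350, adjusted p = 0.0654). Both genes overlapped between the groups through CD replicate 9.

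Dgat1 ranged from 30.5 to 94.3 CPM in CD (median 59.1) and from 21.2 to 38.2 CPM in HFD (median 28.5), with a log2 fold change of -1.07 (SE 0.233, adjusted p = 0.0654). Lipe had a median of 7.65 CPM in CD and 2.69 CPM in HFD, and a log2 fold change of -1.90 (SE 0.595, adjusted p = 0.0786). DESeq2, which called 9.72% of the genes, called these 4 lower, with adjusted p of 0.00499 for Pnpla2, 0.0112 for Gpam, 0.00446 for Dgat1 and 0.0258 for Lipe.

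The size of 3 of these differences rested on 16-week CD replicates 1 and 2. These had 314.5 to 337.9 CPM of Gpam and 27.6 to 28.2 CPM of Lipe, against 53.6 to 138.6 CPM and 1.38 to 9.48 CPM in the other 4 CD libraries. Without both, the log2 fold change was -0.64 for Pnpla2, -0.52 for Gpam and -0.49 for Lipe, and for Dgat1 it was -1.06. The 2 libraries had a share of counts on the 50 most abundant genes under 20%, as the 4-week libraries did. Their mitochondrial shares, 2.01 and 2.31%, were the highest of the group (0.902 to 1.65% in the other 4). The part of either in these values was not tested.

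The coat and uptake genes were not called. Plin2 had a median of 100.7 CPM in CD and 118.4 CPM in HFD (log2 fold change 0.10, adjusted p = 0.832), and its sign turned with total counts (-0.20). The log2 fold change of Plin3 was 0.41, of Cd36 0.48 and of Fabp5 0.63 (adjusted p = 0.285, 0.248 and 0.198).
Dgat2 ranged from 0.825 to 7.27 CPM in CD (116 reads in all) and from 0 to 2.07 CPM in HFD (25 reads), a difference of mean log2(CPM + 1) of -1.31. Its two-sided exact permutation p was 0.0152, and 0.0758 when adjusted over the 5 such tests. None of the other 34 pathway genes tested at 16 weeks was called.

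**Figure D2:**
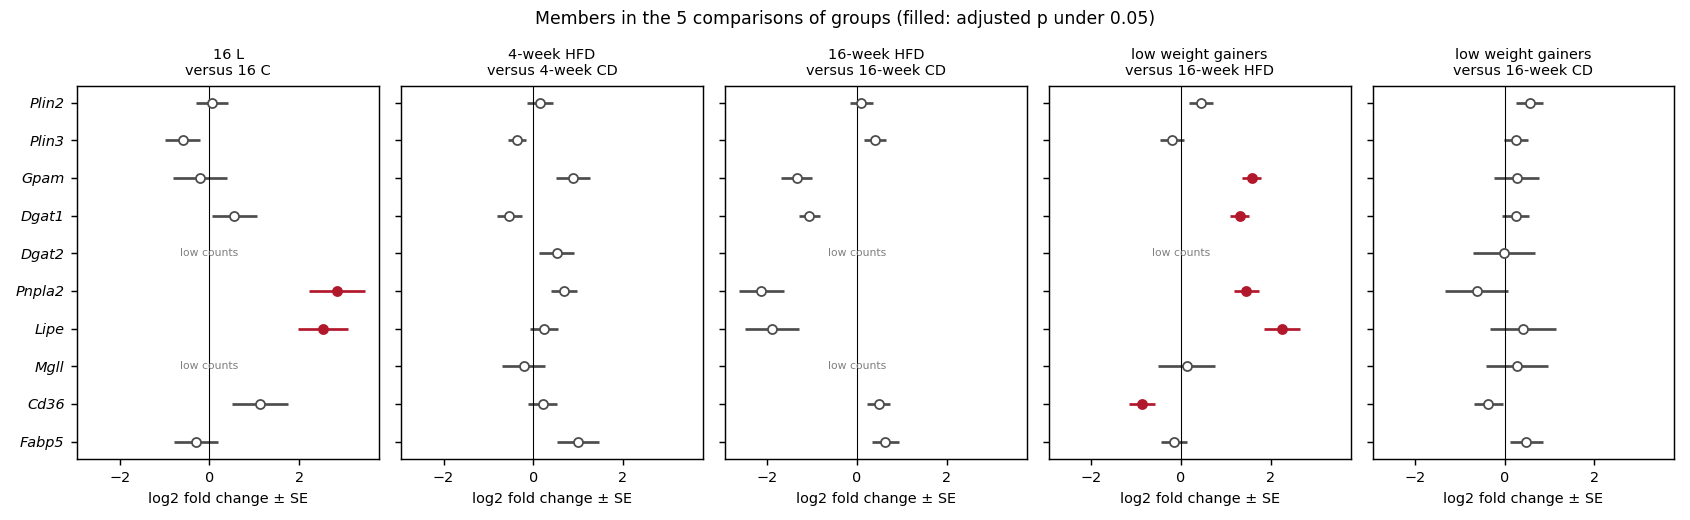
Log2 fold change and SE of each member in the 5 comparisons of groups, filled where the adjusted p was under 0.05. The filled points are Pnpla2 and Lipe in 16 L, and Gpam, Dgat1, Pnpla2, Lipe and Cd36 in the low weight gainers against 16-week HFD.

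The low weight gainers were compared with the other mice on HFD for 16 weeks. Gpam and Dgat1 of the synthesis genes and Lipe and Pnpla2 of the lipases were higher in them, and Cd36 was lower. Of 9 members tested, 4 were higher and 1 lower, where 10.8% of 11258 genes were called higher and 9.93% lower. The median log2 fold change was 0.44 over the members and -0.03 over all genes.
Gpam stood at 200.5, 199.4 and 260.9 CPM in replicates 21, 22 and 23 of the low weight gainers, above every 16-week HFD library (log2 fold change 1.58, SE 0.203, adjusted p = 0.000447). Dgat1 had 70.4, 70.2 and 74.6 CPM, also above all 7 (1.31, SE 0.208, adjusted p = 0.00120).

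Lipe had 14.05, 12.4 and 26.01 CPM against 0.910 to 6.82 CPM (1 to 26 reads) in 16-week HFD, without overlap (log2 fold change 2.26, SE 0.396, adjusted p = 0.00189). Pnpla2 had 14.7, 17.9 and 22.4 CPM against 4.30 to 8.12 CPM, without overlap (1.46, SE 0.278, adjusted p = 0.00275), and it was not called with all 34 libraries in 1 fit, at 1.50001 (adjusted p = 0.0924). Cd36 had 36.4, 57.8 and 43.7 CPM against 41.6 to 128.3 CPM, with overlap (-0.87, SE 0.292, adjusted p = 0.0430). Cd36 lost its call without any one of 16-week HFD replicates 10, 12, 14 or 16 or of low weight gainers replicates 21, 22 or 23, with values from -0.71 to -1.06. It also lost it with total counts (-0.68, adjusted p = 0.0794), with at least 10 counts in every library (-0.79, adjusted p = 0.0503) and with all 34 libraries in 1 fit (-0.82, adjusted p = 0.288). Macrophage markers summed to 277.5 to 416.9 CPM in the low weight gainers and 132.4 to 713.3 CPM in 16-week HFD (66.9 to 482.0 CPM in 16-week CD), and their part in the values of Cd36 and Lpl on these diets was not tested. Plin2 (0.44), Plin3 (-0.19), Fabp5 (-0.16) and Mgll (0.13) were not called.

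Dgat2 had 57 reads in the 3 low weight gainers and 25 in the 7 libraries of 16-week HFD, a difference of mean log2(CPM + 1) of 1.33 with an exact permutation p of 0.0667.

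The low weight gainers' libraries had 22.01 to 25.6% of counts on the 50 most abundant genes and 16-week HFD 24.0 to 29.4%. Mitochondrial genes took 0.337 to 0.614% of counts in the low weight gainers and 0.786 to 1.53% in 16-week HFD, without overlap. Of 7 granulosa and cumulus markers tested, Amhr2 was called higher (log2 fold change 0.94, adjusted p = 0.0326) and Inhba lower (-1.07, adjusted p = 0.0110). Of these 7, 5 had an unadjusted p under 0.05, as did 36.3% of all genes. The part of composition, mitochondrial share and these markers in the differences was not tested.

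Of 35 other pathway genes tested in this comparison, 11 were higher and 4 lower, beside 10.8% and 9.93% of all genes. In glycerolipid and sterol ester synthesis 6 of 11 tested were higher and 1 lower. Agpat2, which makes phosphatidic acid, rose by 1.45 on the log2 scale (adjusted p = 0.00275), and Lpin3, a phosphatidate phosphatase, by 1.34 (adjusted p = 0.00277). Agpat3 rose by 0.95 (adjusted p = 0.00676). In fatty acid uptake, binding and activation 4 of 10 were higher and 2 lower. Slc27a1 rose by 1.57 and Slc27a3 by 1.22 (adjusted p = 0.00326 and 0.00775). Lpl, the lipoprotein lipase that frees fatty acids outside the cell, fell by 1.46 (adjusted p = 0.00120), from 126.0 to 47.3 CPM on average. Of the 9 droplet coat and growth genes tested 1 was higher and 1 lower, and none of the 5 lipolysis regulators was called.

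**Figure D3:**
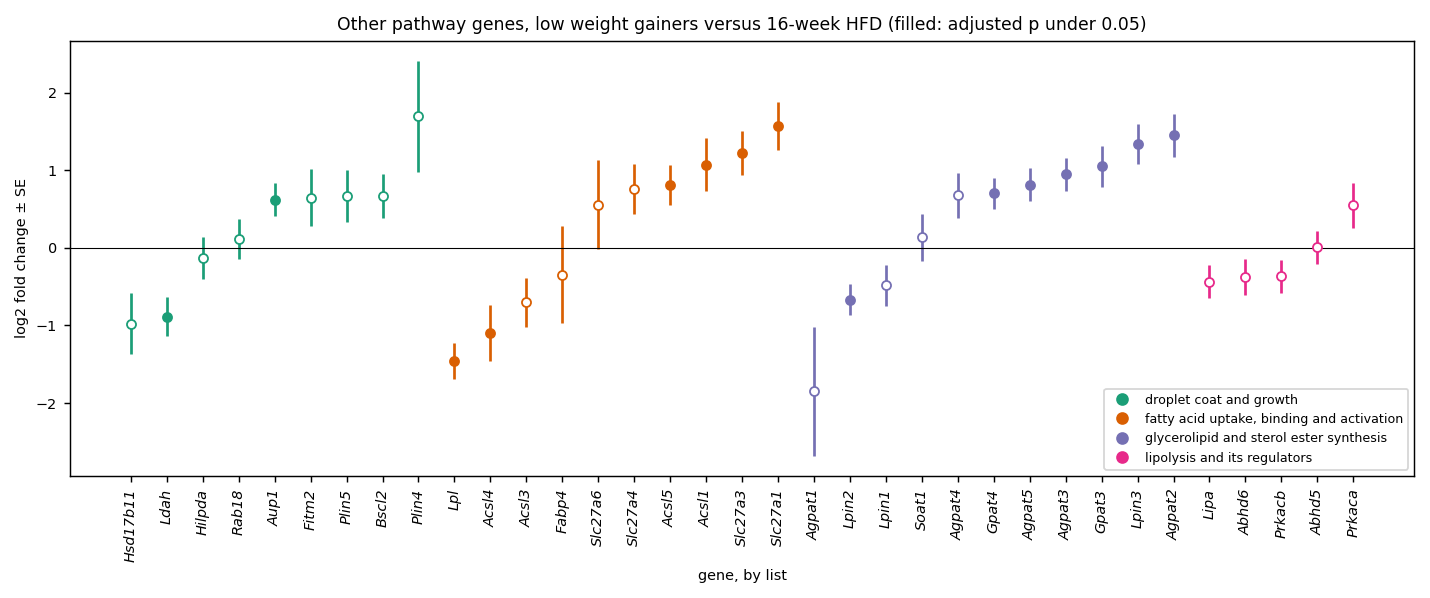
Log2 fold change and SE of the 35 other pathway genes tested in the low weight gainers against 16-week HFD, ordered by list and value, filled where the adjusted p was under 0.05. Filled points above 0 number 11 and those below 0 number 4.

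Against 16-week CD, the low weight gainers had no member called among 10 tested, and none with an unadjusted p under 0.05, against 11.2% of all genes. Here 0.00861% of 11620 genes were called. The log2 fold change was 0.27 for Gpam (SE 0.500), 0.25 for Dgat1 (SE 0.303), 0.40 for Lipe (SE 0.733) and -0.63 for Pnpla2 (SE 0.711). Without 16-week CD replicates 1 and 2 the values were 1.04 for Gpam, 0.23 for Dgat1, 1.77 for Lipe and 0.82 for Pnpla2, with none called (adjusted p = 0.161, 0.755, 0.155 and 0.251). Both comparisons use the same 3 low weight gainers.

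The diet effect at 16 weeks was set against that at 4 weeks by an interaction term. It was -2.70 for Pnpla2 (SE 0.605, adjusted p = 0.0231) and -2.09 for Gpam (SE 0.529, adjusted p = 0.0299), so that 2 of 10 members were called, with 3.66% of 12235 genes called (1.74% higher and 1.92% lower). Dgat2 had -2.32 (adjusted p = 0.0683) and Lipe -2.02 (adjusted p = 0.0778). Plin2 had 0.00. Without 16-week CD replicates 1 and 2 the term was -1.38 for Pnpla2 (adjusted p = 0.0888) and -1.42 for Gpam (adjusted p = 0.117). The call of Gpam was also lost without any one of 16-week CD replicates 1 or 2, 16-week HFD replicate 15, 4-week CD replicates 1, 2 or 8, or 4-week HFD replicates 3, 4 or 5, with values from -1.84 to -2.11 (adjusted p from 0.0506 to 0.0647). All 34 libraries in 1 fit lost it too, at -2.22 (adjusted p = 0.0523). The call of Pnpla2 was lost without 4-week HFD replicate 5, the library with 290.4 CPM of oocyte markers, where its value was still -2.54 (adjusted p = 0.0512). Of 36 other pathway genes tested Lpl alone was called, at 1.14 (adjusted p = 0.0484). Of 21 cell type markers tested Fshr alone was called, at -2.67 (adjusted p = 0.0287).

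**Figure D4:**
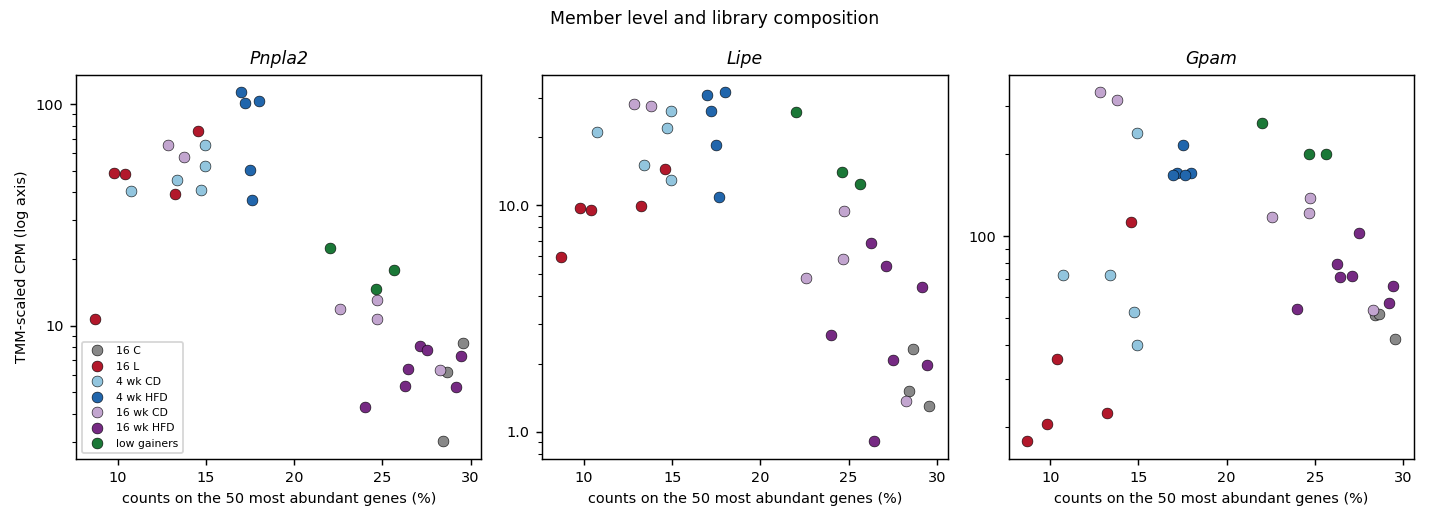
TMM-scaled CPM (log axis) of Pnpla2, Lipe and Gpam against the percentage of counts on the 50 most abundant genes, with points for libraries. Pnpla2 lay between 37.0 and 113.6 CPM in 16 of the 17 libraries under 20% (10.7 CPM in the remaining one, 16 L replicate 18) and between 3.02 and 22.4 CPM in the 17 libraries above it, while Lipe (5.92 to 31.7 and 0.910 to 26.01 CPM) and Gpam (17.8 to 337.9 and 41.9 to 260.9 CPM) overlapped between these libraries.

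Finally, pairs of members were compared across mice after removing group means. Of 45 pairs, 3 had an adjusted permutation p under 0.05, all positive, and they joined Pnpla2, Lipe and Gpam. For Pnpla2 and Lipe over 34 libraries, Pearson's r was 0.742 (permutation p = 0.00012, adjusted 0.00518) and Spearman's rho 0.640 (p = 0.00043, adjusted 0.0194). Within experiments r was 0.785 in the 8 leptin libraries, 0.789 at 4 weeks and 0.794 at 16 weeks (unadjusted permutation p = 0.0556, 0.0202 and 0.00687). In the same order rho was 0.452, 0.782 and 0.635 (unadjusted permutation p = 0.307, 0.0302 and 0.0268), so that the leptin libraries alone did not pass 0.05 by either. Over all experiments r was 0.696 without the 2 libraries farthest out. Without 16-week CD replicates 1 and 2 it was 0.512 (adjusted permutation p = 0.0347). Plin2 and Pnpla2 passed the threshold without these 2 libraries, going from an r of 0.158 (adjusted permutation p = 0.596) to 0.543 (adjusted permutation p = 0.0347).

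For Gpam and Lipe r was 0.632 (permutation p = 0.00023, adjusted 0.00518) and rho 0.552 (p = 0.00177). For Gpam and Pnpla2 r was 0.661 (permutation p = 0.00047, adjusted 0.00705) and rho 0.501 (p = 0.00468, adjusted 0.0702). Without 16-week CD replicates 1 and 2 these 2 relations no longer passed the threshold, with r of 0.449 (permutation p = 0.00478, adjusted 0.0716) and 0.489 (permutation p = 0.0443, adjusted 0.214). Gpam and Pnpla2 also missed it without CD replicate 1 or 2 of 16 weeks alone or 4-week CD replicate 11, with r from 0.604 to 0.696 (adjusted permutation p from 0.0615 to 0.075). Within experiments r was 0.777 and 0.587 in the leptin libraries, 0.358 and 0.192 at 4 weeks, and 0.816 and 0.935 at 16 weeks, the experiment of those CD libraries. The unadjusted permutation p was 0.0681 and 0.242 in the leptin libraries, 0.211 and 0.372 at 4 weeks, and 0.00525 and 0.00026 at 16 weeks. Without the 2 libraries farthest out on Gpam, r was 0.725 and 0.698.

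**Figure D5:**
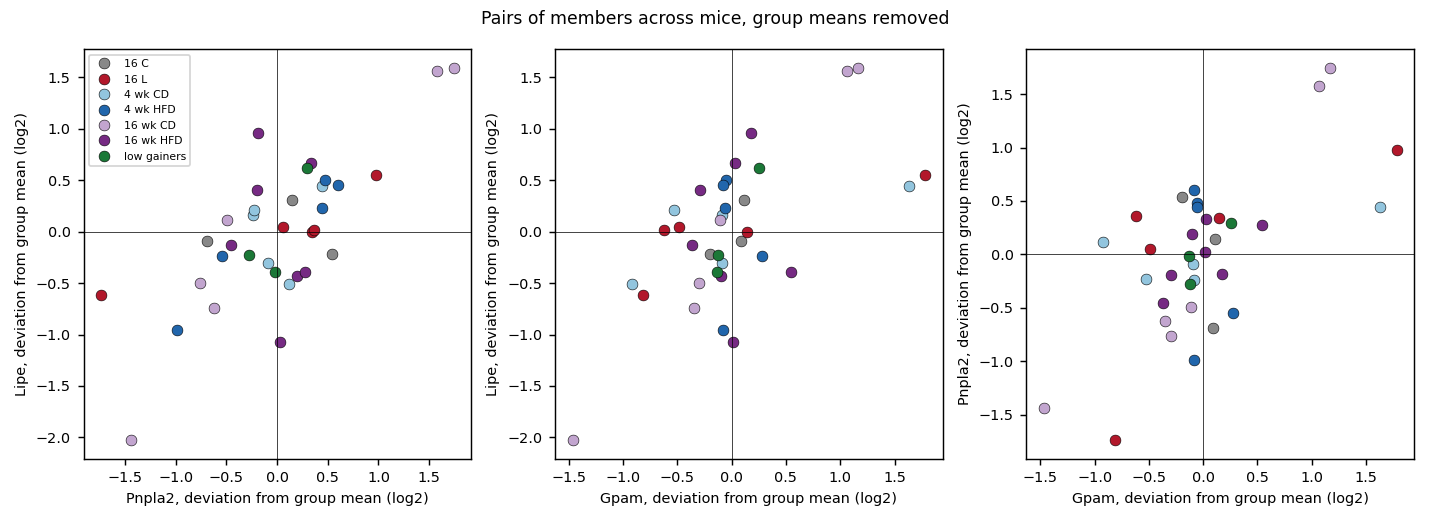
Deviation of log2(CPM + 1) from the group mean in each library for the 3 pairs of members that passed the threshold, colored by group. In each panel 16-week CD replicates 1 and 2 lie at the upper right.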

How the data were processed

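The authors made libraries by Smart-seq2 and deposited raw read counts per gene, without normalization. Their processing notes name Trim Galore 0.4.2, HISAT2 2.0.5 and GRCm38, and the counting program is not given in the sources used here. Groups came from the labels, and 72 replicate pairs held no identical columns. The test on counts was that of edgeR 4.0.16 under R 4.3.3 (filterByExpr, TMM, robust quasi-likelihood test, Benjamini-Hochberg over all genes), each comparison on its own groups. Members failing the filter had two-sided exact permutation tests on log2(CPM + 1), doubling the smaller tail as in scipy 1.17.1. A first version counted absolute differences instead and disagreed with scipy on simulated data, and it gave 0.0140 and 0.0417 for Dgat2 at 16 weeks and in the low weight gainers. Adjusting these 5 tests together was also decided after their values were seen. Pairs used 100000 permutations within groups. The fits were tested on simulated data.

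The 10 members are named in full, with the other pathway genes by smallest adjusted p, at most 6 per comparison. Members and lists were chosen with earlier results of these data known. Alternatives were DESeq2 1.42.0, limma 3.58.1 (voom with quality weights), RLE, total counts, other filters, 1 fit of all libraries, a pseudocount of 0.1 in place of 1, a replicate block and leaving out each library. Leaving out pairs of libraries, the 20% split by composition and the promoters shown were chosen after seeing the data. Intervals of counting error were not used, and a count of 0 allows up to 3 reads. Each mouse gave 1 library, so that p-values measure the spread between libraries of different mice. Differences between mice, between complexes and between library preparations cannot be told apart in it.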

Additional observations from a re-analysis of the deposited data

Results flagged for a closer look

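Of 50 groups of a member checked for a library far from the rest, 7 had one. Chance gives about 1 in 20 where values are normally distributed and independent. Members here share libraries and some have few reads, so that 7 cannot be set against that rate. In 16 L, Gpam was highest in replicate 19 (112.6 CPM), and replicate 18 was highest in Dgat2 (13.6 CPM) and Mgll (33.4 CPM). In 16-week CD, replicate 2 was lowest in Mgll (0.137 CPM, 1 read). In 4-week CD, replicate 11 was highest in Gpam (239.2 CPM) and replicate 7 lowest in Mgll (0.597 CPM, 3 reads). In 4-week HFD, replicate 13 was highest in Gpam (215.3 CPM, with the nearest library at 170.5 CPM).

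The diet effect differed between 16 and 4 weeks for Pnpla2 (-2.70 on the log2 scale) and Gpam (-2.09) by the interaction term of edgeR, with adjusted p of 0.0231 and 0.0299 over all libraries of the 4 groups. Neither was called without 16-week CD replicates 1 and 2, or without 4-week HFD replicate 5, and Gpam was not called on leaving out any one of the single libraries named with that result.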

How the results depend on the processing

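Counts of members called moved with the tool. With limma-voom they were 6 in 16 L, 6 in 4-week HFD and 6 in the interaction, against 2, 0 and 2 with edgeR, where limma-voom called 64.4, 34.5 and 19.2% of all genes and edgeR 8.56, 4.26 and 3.66%. DESeq2 gave 4 at 16 weeks and 4 in the interaction (9.72 and 9.52% of all genes), and total counts 4 at 16 weeks (15.2%). All 34 libraries in 1 fit gave 5 at 16 weeks, 3 in the low weight gainers against 16-week HFD and 1 in the interaction (9.5, 3.68 and 1.19% of all genes). At least 10 counts in every library gave 0 in 16 L, 2 in the low weight gainers against 16-week HFD and 1 in the interaction, with 6, 6 and 5 members tested and 11.9, 24.6 and 6.08% of all genes called. Pnpla2 was not tested there in any of the 3, nor Lipe, while Cd36 was tested in the low weight gainers and lost its call (-0.79). No filter gave 1 in 16 L (2.66%), where Lipe lost its call at 2.58 (adjusted p = 0.0673). The replicate block gave 0 in the interaction (0.0817%), with -3.30 for Pnpla2 (adjusted p = 0.115) and -3.97 for Gpam (adjusted p = 0.0608), and the numbers mark different mice, so that they share only a number. Leaving out 16-week CD replicates 1 and 2 gave 0 in the interaction (0.725%), and leaving out 4-week HFD replicates 13 and 14 gave 2 at 4 weeks (7.71%, both chosen after seeing the data). No member was called in the low weight gainers against 16-week CD under any of these. Pairs passing the threshold numbered 5 with total counts. Apart from the changes in construction named here, the cause was not tested.

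Leaving out 1 library gave 0 to 3 members in 16 L, 0 to 1 at 4 weeks (1 without 4-week CD replicate 11), 0 to 4 at 16 weeks (3 and 4 without 16-week CD replicates 13 and 9), 4 to 5 in the low weight gainers against 16-week HFD and 0 to 4 in the interaction (0 without 4-week HFD replicate 5, 4 without 16-week CD replicate 9). It gave 0 to 1 members with low counts and 2 to 6 pairs (6 without 16 L replicate 18). The shares of all genes called in these fits are not given here, so that the counts of members cannot be set against them.

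Directions of uncalled members turned as follows, on the log2 scale. In 16 L, Fabp5 was 0.22 by voom and 0.56 by total counts, which also gave 0.16 for Plin3 and 0.62 for Gpam. At 4 weeks, Mgll was 0.67 by voom and 0.13 without 4-week HFD replicates 13 and 14. At 16 weeks, Plin2 was -0.20 by total counts and -0.060 without 16-week CD replicates 1 and 2. In the low weight gainers against 16-week HFD, Fabp5 was 0.020 by total counts. Against 16-week CD, voom gave 0.16 for Dgat2 and 0.17 for Pnpla2, total counts -0.094 for Gpam, no filter 0.0036 and 1 fit 0.0065 for Dgat2, and leaving out CD replicates 1 and 2 gave 0.72 for Dgat2 and 0.82 for Pnpla2. In the interaction, voom gave -0.39 for Cd36 and -0.99 for Mgll, and the replicate block 1.24 for Fabp5, 0.28 for Plin2 and 0.72 for Dgat1. For Mgll outside the fit, the pseudocount of 0.1 gave -0.047 in 16 L and -0.073 at 16 weeks, and total counts -0.14 at 16 weeks.

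Leaving out 1 library gave -0.563 to 0.250 for Fabp5 and -0.049 to 0.15 for Plin2 in 16 L, and -0.48 to 0.024 for Mgll at 4 weeks. It gave -0.11 to 0.34 for Mgll in the low weight gainers against 16-week HFD, -0.025 to 0.44 for Mgll and -0.46 to 0.51 for Dgat2 against 16-week CD, and -0.23 to 0.15 for Plin2 in the interaction. Mgll outside the fit ranged from -0.45 to 0.79 in 16 L and from -0.25 to 0.32 at 16 weeks.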
